A study of Mus musculus with 16 samples.

Results

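The mouse hippocampus expression table holds 27670 transcribed loci, and 4269 of them carry a dash in place of a gene name. Described here are the 1232 unnamed loci whose mean over all 16 libraries was at least 1 FPKM (fragments counted per kilobase of transcript relative to all mapped fragments, a level per length). They were selected on this mean FPKM and the missing name, and on no comparison between groups. The remaining 3037 unnamed loci lay below the limit. The 3 loci just inside it had a mean of 1.0 FPKM, and the 3 just outside had 0.996, 0.99 and 0.989 FPKM.

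Polyadenylated RNA was sequenced from the hippocampus of male C57BL/6 mice in 4 groups of 4 libraries. Wild-type mice drank regular water (WTCtrl) or water with 15% (w/v) fructose (WTFru). Mice with a knockout of the X-linked gene Bgn, written Bgn0/- by the submitters, drank regular water (BgnCtrl) or the same fructose solution (BgnFru). The drinks were given for 6 weeks, starting at 3 months of age. The product of Bgn is biglycan, a small proteoglycan of the extracellular matrix. The labels do not say how the Bgn gene was disrupted, in which cells, or whether the 4 libraries of a group came from 4 animals, and the tests below see only the variation among these libraries, which may be technical. Hippocampus is a mixed tissue, and in a bulk library fewer cells of a type and less RNA per cell cannot be told apart.

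A transcript assembler such as Cufflinks joins overlapping reads into loci and gives a gene name where a locus matches the annotation it was given. Loci without a name can be transcripts between genes, antisense or unspliced RNA, extensions of known genes, repeats, or small stretches of signal with a single exon. A read from an unspliced fragment shows no strand unless the library preparation keeps it, so a single-exon locus often has no strand at all. FPKM divides by locus length, and the table gives neither lengths nor coordinates, so the levels cannot be traced to a length, and no sequence could be placed.

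File order gave the only information on position. Named loci matched to GENCODE vM21 (GRCm38, the assembly also called mm10) ran by chromosome, plus strand before minus strand, and 99.4% of neighbouring named pairs on one chromosome and strand were in ascending order of start. After the minus-strand loci of a chromosome came long runs of 14 to 221 successive unnamed loci, 30 runs in all. These runs held 953 of the 1232 loci. The other 279 stood singly or in runs of at most 8 between named loci, here called flanked. For 246 flanked loci both named neighbours lay on the same chromosome and strand, 126 on the plus and 120 on the minus strand, with a median distance of 407 kb between the neighbours. A run is given the chromosome of the block it closes, as locus number and run length, for example locus 48 of 52. That reading rests on file order alone. The table names 0 mitochondrial genes, so loci of the mitochondrial genome or of unplaced sequence could stand within a run without being recognised.

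Libraries differed in ways that touch what follows. Summed over the 2 loci named Bgn, FPKM was 4.46 to 7.6 in the 8 knockout libraries and 9.94 to 24.2 in 7 wild-type libraries. The library labelled WTFru replicate 1 had 5.42, within the knockout range. At the Bgn locus next to Pnck alone, WTCtrl replicate 1 (2.61) and WTFru replicate 1 (1.42) both lay within the knockout range of 0.628 to 3.58 FPKM. At the other Bgn locus only WTFru replicate 1 did, at 4.0 FPKM. WTFru replicate 1 lay with the other wild-type libraries at the loci described below that were listed at 0 in one genotype. The 4 libraries numbered 1 stood apart from the other 12 at many named loci. Of 8 listed markers of hippocampal neurons 7 were found in the table, and each of these reached 1 FPKM. Their sum was 887 to 1010 FPKM in WTCtrl, 891 to 1030 in WTFru, 779 to 852 in BgnCtrl and 756 to 1010 in BgnFru. The 7 choroid plexus markers, all found, summed to 2500 to 6040, 229 to 4440, 797 to 6250 and 2630 to 9140 FPKM in the same order. The 5 astrocyte markers summed to 444 to 502, 465 to 486, 489 to 682 and 545 to 734 FPKM, and the 5 microglia markers to 82.5 to 113, 90.6 to 111, 84.8 to 163 and 115 to 156 FPKM. Thus knockout and wild type did not overlap in the neuron markers on water, nor in the astrocyte and microglia markers on fructose, and the part of these differences in the results below was not tested.

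Levels among the unnamed loci reached far beyond those of named genes. The median was 4.49 FPKM with an upper quartile of 16.7 and a highest mean of 241000, against a median of 10.1 and a highest mean of 3870 over the 12873 named loci that passed the same limit. Loci of the long runs had a median of 5.87 FPKM and flanked loci 2.52. At least 100 FPKM was reached by 82 unnamed loci (6.66%) and by 606 named loci (4.71%). At least 1000 FPKM was reached by 18 unnamed loci, 17 of them in long runs, and by 15 named loci.

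**Figure D1:**
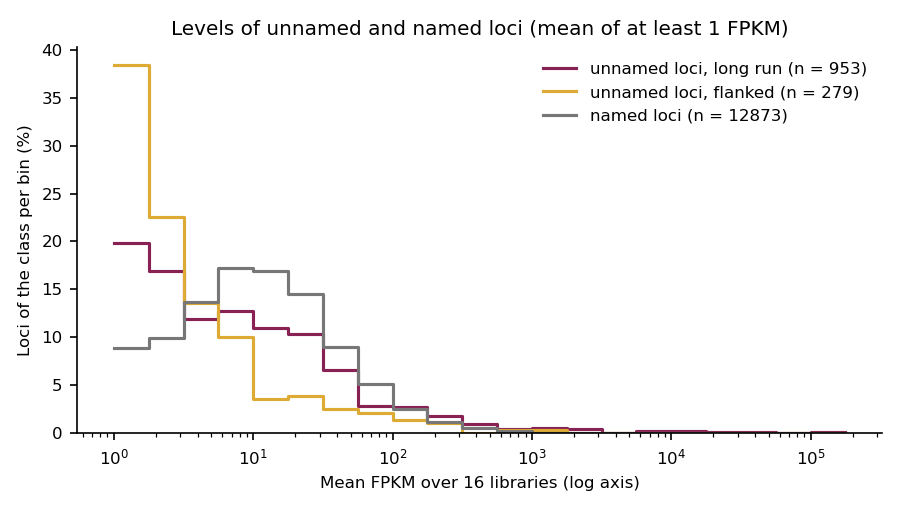
Share of loci (%, vertical axis) per bin of mean FPKM over 16 libraries (log horizontal axis) for the 953 unnamed loci of long runs, the 279 flanked unnamed loci and the 12873 named loci. Flanked loci crowd at the low end (median 2.52 FPKM), while the long runs alone extend to 241000 FPKM.

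A large part of the summed FPKM of a library lay in a few unnamed loci. As FPKM divides by locus length and the lengths are not known, a share of summed FPKM is not a share of reads or of RNA. The 1232 loci held 46.6% to 70.3% of it, with a median of 59.2%. The single most abundant, locus 22 of 207 in the run on chromosome 4, held 14.8% to 47.6%, and the 10 most abundant held 42.1% to 66.4%. The other 1222 loci held 3.46% to 5.72%. By group, the share of all 1232 was 53.5% ± 2.06 in WTCtrl, 56.4% ± 6.51 in WTFru, 55.5% ± 7.21 in BgnCtrl and 64.8% ± 5.75 in BgnFru (SD, n = 4). Relative to the FPKM of named loci, the other 1222 loci came to 9.36% ± 0.8, 10.4% ± 1.53, 11.0% ± 1.4 and 12.1% ± 1.52 in the same order, with ranges that overlapped between successive groups. No p-value is given for these sums, since they are sums over chosen loci.

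**Figure D2:**
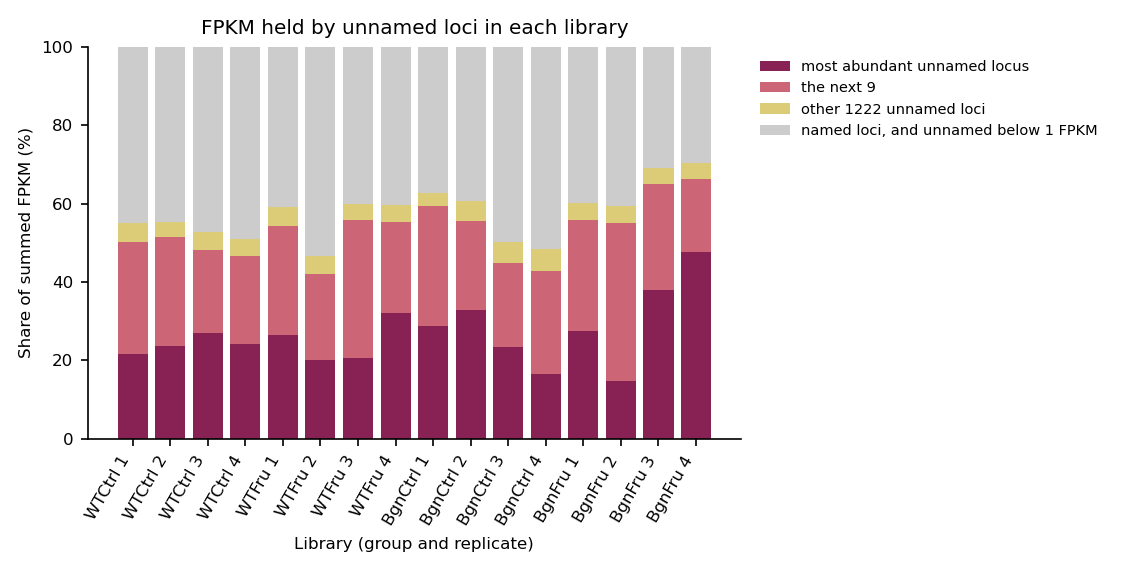
Share of summed FPKM (%, vertical axis) in each of the 16 libraries (horizontal axis), split into the most abundant unnamed locus, the next 9, the other 1222 unnamed loci, and all remaining loci. The bars of unnamed loci reach 46.6% (WTFru replicate 2) to 70.3% (BgnFru replicate 4), and the band of the other 1222 stays between 3.46% and 5.72%.

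All 10 most abundant loci lay in long runs, each on a different chromosome, and they varied widely between libraries. Locus 22 of 207 on chromosome 4 was at 115000 FPKM in the lowest library, 199000 at the median and 586000 in the highest. In BgnFru it stood at 262000, 132000, 457000 and 586000 FPKM in replicates 1 to 4, so the knockout libraries on fructose alone spanned most of the range. Locus 35 of 100 on chromosome 17 was the next, at 51800 to 207000 FPKM with a median of 112000. Locus 32 of 163 on chromosome 5 was at 15200 to 86700 FPKM wherever it was above 0. It was listed at 0 in BgnCtrl replicate 3, beside 86700, 57100 and 39800 in the other BgnCtrl libraries, and such a 0 can be a failed estimate of the quantifier. Locus 13 of 124 on chromosome 6 was the steadiest of the 10, at 12900 to 31700 FPKM with a median of 18800. The remaining 6 had medians of 2280 to 12500 FPKM, and the ratio of the highest to the lowest library was 2.79 to 12.3. Mean FPKM in the 8 knockout libraries was 1.02 to 1.79 times that in the 8 wild-type libraries across the 10. The limma test called 0 of the 10 in either genotype comparison, with a smallest adjusted p of 0.151.

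The knockout was first compared with wild type on regular water. Here 25 of the 1232 unnamed loci differed (2.03%), 13 higher and 12 lower in the knockout, at an adjusted p under 0.05 from limma fitted to all 14105 loci with a mean of at least 1 FPKM. The same fit called 0.539% of all loci tested, 0.248% as higher and 0.291% as lower. Of the 25, 22 lay in long runs and 3 were flanked. At 13 of the 25 the mean of a genotype was under 1 FPKM, as at 67 of the 1232. Such loci passed the limit through the genotype where they are high, so the count is given as a description. The median log2 fold was 0.009 over the unnamed loci and -0.001 over all loci, so neither set shifted as a whole. The log2 folds given are differences of log2(FPKM + 1), a scale that understates the change of low loci.

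On fructose the knockout differed from wild type at 64 of the 1232 loci (5.19%), 33 higher and 31 lower. Over all loci tested, 3.8% were called on fructose, 1.64% as higher and 2.16% as lower. Of the 64, 47 lay in long runs and 17 were flanked. At 18 of the 64 the mean of a genotype was under 1 FPKM, so this count is a description as well. The median log2 fold was 0.008 over the unnamed loci and -0.01 over all loci. Taken relative to the nearest named loci, 53 were higher and 25 lower. With a block for the replicate number the count was 146, and without the library labelled WTFru replicate 1 it was 48. Leaving out WTFru replicate 4 gave 40, and leaving out BgnFru replicate 4 gave 37. Counts over all loci under these alternatives are not given, so the changes are not read as particular to unnamed loci.

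The genotype comparisons on the separate drinks share no library, but they come from the same fit and share its estimate of the spread at each locus. Calls in both are thus not independent. In both, 23 of the 1232 loci were called (1.87%), in the same direction each time, beside 0.461% of all loci tested. They were 92% of the 25 calls on water and 35.9% of the 64 on fructose. Of the 23, 13 were higher and 10 lower in the knockout, 20 lay in long runs and 3 were flanked, and they fell on 14 chromosomes, 3 of them on X. At each of the 23 the 8 knockout libraries did not overlap the 8 wild-type libraries. Non-overlap of this kind was found at 34 of the 1232 loci (2.76%), 18 with the knockout above and 16 below. Over all loci tested it was found at 1.32%, 0.567% above and 0.752% below. At 13 of the 23 the mean of a genotype was under 1 FPKM, so they passed the limit of 1 FPKM through the genotype where they are high and had to differ, and the counts are given as a description. For the other 41 loci called on fructose the median size of the log2 fold was 0.58 on fructose and 0.25 on water. These loci were picked as called on fructose and not on water, so a larger fold on fructose follows from the selection. The same sign on both drinks was found at 35 of them, given without the same count over all loci. That the fold differed between the drinks was not shown for any unnamed locus, since the interaction test called 0.

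**Figure D3:**
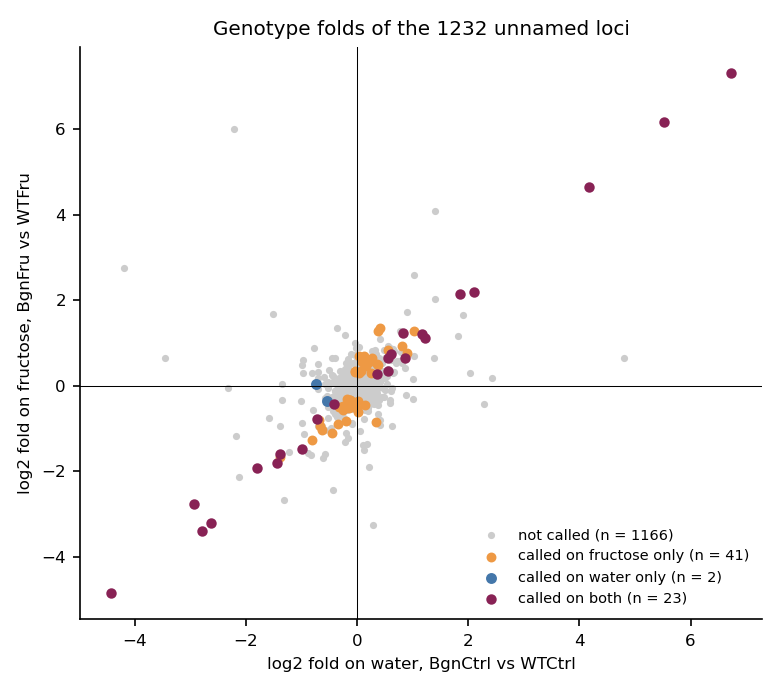
Log2 fold of knockout over wild type on water (horizontal axis) and on fructose (vertical axis) for each of the 1232 unnamed loci, on the log2(FPKM + 1) scale, with points coloured by call. The 23 loci called on both drinks lie in the lower left and upper right, 10 lower and 13 higher in the knockout. The 41 called on fructose only have a median size of 0.58 on the vertical axis and 0.25 on the horizontal axis, a gap that follows from how they were picked.

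The sharpest differences were loci listed at 0 in all 4 libraries of a group and at 1 FPKM or more in all 4 of another. There were 9 such unnamed loci (0.731%) beside 0.0922% of all loci tested, 8 in long runs and 1 flanked. The knockout carried the signal at 4 of them and wild type at 5. No fold is given for them, because the tables hold no counts from which a bound could be set, and no test, because each passed the limit of 1 FPKM only through the genotype where it is high. All 9 are among the 23 counted above.

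Locus 115 of 154 on chromosome 12 was the most abundant of the 4 found in the knockout. It stood at 331, 233, 320 and 147 FPKM in BgnCtrl and at 165, 153, 187 and 133 in BgnFru. Wild-type libraries were all listed at 0 except WTCtrl replicate 2, at 28.2 FPKM. The knockout group means were 258 ± 86 and 159 ± 22.5 FPKM (SD, n = 4), and the groups of the 2 genotypes did not overlap. Its neighbours in the run did not follow it: locus 114 and locus 116 had means of 0.172 and 0.258 FPKM over all libraries, with overlapping genotypes.

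Locus 43 of 128 in the X chromosome run (XLOC_027478 in the table) was listed at 0 in all 8 wild-type libraries. BgnCtrl gave 60.8, 61.8, 73.1 and 14.4 FPKM and BgnFru 77.3, 76.6, 48.2 and 87.7. Thus every knockout library lay above every wild-type library, and BgnCtrl replicate 4 was the lowest of the 8. The X run follows the chromosome that carries Bgn, but where in the run a locus lies relative to Bgn is not given. A pair of fainter loci, numbers 46 and 47 of this run, are below the 1 FPKM limit and were chosen after their values were seen. Locus 46 read 0.235 to 0.379 FPKM in the knockout and 0 to 0.0127 in wild type, and locus 47 read 0.214 to 0.414 and 0 to 0.00794. Of all 3037 unnamed loci below the limit, 56 (1.84%) had genotypes that did not overlap, 29 with the knockout above.

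Locus 48 of 52 on chromosome 14 (XLOC_007836) was listed at 0 in all 8 wild-type libraries. BgnCtrl stood at 17.6, 20.3, 23.3 and 10 FPKM, and BgnFru at 27.5, 24.1, 25.8 and 19.5. The 2 genotypes were fully apart, and the 2 drinks overlapped within the knockout. Locus 85 of 128 on X was fainter, at 2.49, 2.05, 3.37 and 2.65 FPKM in BgnCtrl and 2.62, 2.96, 4.74 and 5.72 in BgnFru. It was listed at 0 in wild-type libraries other than WTFru replicates 1 and 2, at 0.199 and 0.164 FPKM.

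Of the 5 loci found in wild type, the most abundant was locus 172 of 197 on chromosome 3 (XLOC_016380). WTCtrl stood at 39.0, 18.7, 18.6 and 19.1 FPKM and WTFru at 15.7, 40.2, 33.2 and 28.2. BgnCtrl had 0.192, 0, 0 and 0.239, and all 4 BgnFru libraries were listed at 0. The lowest wild-type library thus lay above the highest knockout library, at 15.7 against 0.239 FPKM. The next row, locus 173 of the same run, showed the same arrangement at a lower level. It was at 10.7, 4.25, 6.77 and 6.17 FPKM in WTCtrl and 3.11, 12.3, 6.11 and 6.26 in WTFru, against 0 in every knockout library except BgnFru replicate 2 at 0.341. Rows on either side of this pair, locus 171 and locus 174, read 0.157 to 0.401 and 0.145 to 0.447 FPKM in wild type and 0.139 to 0.475 and 0.0614 to 0.22 in the knockout, with overlap between the genotypes in both rows.

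Locus 124, the last of 124 in its run on chromosome 6 (XLOC_021100), was listed at 0 in all 8 knockout libraries. Wild type stood at 15.2, 5.82, 2.13 and 5.78 FPKM on water and 9.5, 6.81, 10.7 and 11.5 on fructose. Locus 75 of 158 on chromosome 15 was at 9.11, 4.32, 4.82 and 4.91 FPKM in WTCtrl and 4.92, 9.76, 9.28 and 10.2 in WTFru. The knockout libraries had 0.151, 0.0977, 0 and 0 on water and 0 in all 4 on fructose. The genotypes were thus apart at both loci, although the wild-type libraries varied several-fold.

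The fifth was flanked. It is the first of 4 unnamed loci on the plus strand of chromosome 8 that follow Mfhas1 (GRCm38 positions 35587798 to 35679449) and precede the locus named D8Ertd82e. WTCtrl stood at 2.62, 1.8, 1.67 and 1.68 FPKM and WTFru at 2.25, 3.05, 2.67 and 2.08. BgnCtrl had 0, 0.144, 0 and 0.186, and BgnFru was listed at 0 throughout. D8Ertd82e itself, 4 rows on, was lower in the knockout as well, at 19.0 to 23.0 FPKM in wild type and 9.41 to 11.8 in the knockout (log2 fold -0.87 ± 0.07 SE on water and -0.99 ± 0.07 on fructose, limma adjusted p = 5.51e-06 and 1.06e-06). Mfhas1, a gene for a leucine-rich repeat protein, was not called (0.14 ± 0.08 and 0.11 ± 0.08). The 3 unnamed loci in between, next to D8Ertd82e, were not called either, with log2 folds of -0.21 to 0.04 on water and -0.37 to -0.12 on fructose.

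**Figure D4:**
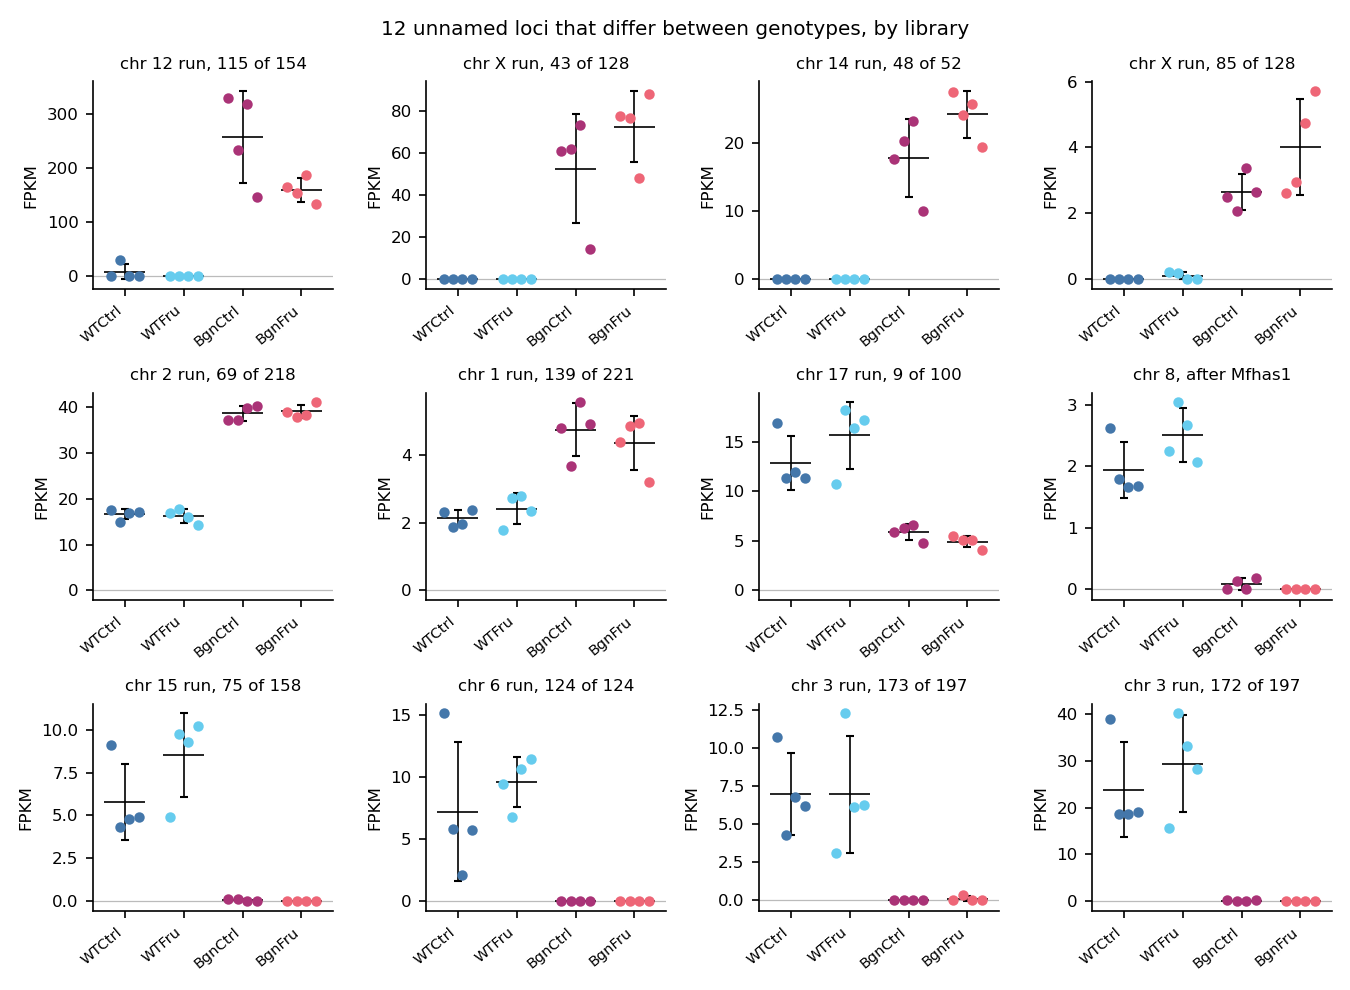
FPKM (vertical axes, linear, 1 panel per locus) in each library of the 4 groups (horizontal axes) for the 9 loci listed at 0 in a group and 3 others called on water, with points for libraries, bars for group means and whiskers for SD. In each of the 12 panels the knockout libraries lie wholly above or wholly below the wild-type libraries.

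Other called loci did not meet that definition of 0 in a whole group. Locus 69 of 218 on chromosome 2 was well expressed in every library. WTCtrl stood at 17.5, 15.0, 17.0 and 17.2 FPKM, WTFru at 17.0, 17.7, 16 and 14.3, BgnCtrl at 37.3, 37.3, 39.9 and 40.3, and BgnFru at 39.0, 38.0, 38.4 and 41.2. The knockout mean was 2.36 times the wild-type mean, and libraries within a genotype differed little (log2 fold 1.17 ± 0.07 SE on water and 1.22 ± 0.07 on fructose, limma adjusted p = 8.42e-08 and 3.96e-08). Locus 17 of 19 on chromosome 16 stood at 0.094 ± 0.175 FPKM in wild type, with 6 of 8 libraries listed at 0, and at 4.07 ± 1.67 in the knockout (SD, n = 8). At locus 139 of 221 on chromosome 1 wild type stood at 2.26 ± 0.371 FPKM and the knockout, higher, at 4.54 ± 0.759 (SD, n = 8; limma adjusted p = 0.00341 and 0.0156).

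Lower in the knockout were locus 21 of 52 on chromosome 14, locus 14 of 197 on chromosome 3 and locus 9 of 100 on chromosome 17. The first stood at 2.49 ± 0.331 FPKM in wild type and 0.248 ± 0.157 in the knockout (SD, n = 8). The chromosome 3 locus stood at 2.8 ± 0.997 and 0.0184 ± 0.0343 FPKM (SD, n = 8), with 6 of 8 knockout libraries listed at 0. Both, like the chromosome 16 locus, passed the limit through 1 genotype, so no p is given. At the chromosome 17 locus WTCtrl stood at 16.9, 11.3, 11.9 and 11.3 FPKM, WTFru at 10.7, 18.2, 16.4 and 17.2, BgnCtrl at 5.92, 6.28, 6.61 and 4.79, and BgnFru at 5.43, 5.12, 5.06 and 4.07. Its knockout libraries all lay below its wild-type libraries (log2 fold -0.99 ± 0.16 SE on water and -1.47 ± 0.16 on fructose, limma adjusted p = 0.00537 and 7.84e-05).

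Another flanked locus called on both drinks lies between Pnck and Bcap31 on the X chromosome, with Bgn the next named locus before Pnck in the file, and is described because of that place, chosen after its values were seen. WTCtrl stood at 2.9, 2.88, 3.05 and 2.65 FPKM, WTFru at 2.79, 3.06, 2.96 and 2.78, BgnCtrl at 1.89, 1.73, 2.07 and 1.92, and BgnFru at 1.82, 1.74, 2.14 and 1.95. The genotypes did not overlap (log2 fold -0.42 ± 0.06 SE on each drink, limma adjusted p = 0.00355 and 0.00219). Pnck, a gene for a calmodulin-dependent kinase, moved the other way (0.44 ± 0.08 and 0.45 ± 0.08, limma adjusted p = 0.0119 and 0.00533), and Bcap31 was not called (-0.06 ± 0.07 and -0.08 ± 0.07).

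On fructose the rule that picks loci by size of fold added 4 loci that were not called on water. Locus 166 of 190 on chromosome 11 was lower, at 4.22 ± 0.594 FPKM in WTFru and 0.831 ± 0.989 in BgnFru (SD, n = 4). The others were higher. Locus 96 of 168 on chromosome 13 went from 0.655 ± 0.461 to 2.91 ± 0.52 FPKM. Locus 162 of 197 on chromosome 3 went from 2.02 ± 1.41 to 5.77 ± 0.715 (limma adjusted p = 0.0444). Locus 2 of 218 on chromosome 7 went from 13.4 ± 5.01 to 33.8 ± 10.3 (limma adjusted p = 0.049). The chromosome 11 locus had a knockout mean of 0.982 FPKM, and the chromosome 13 locus a wild-type mean of 0.533. Both passed the limit through 1 genotype, so no p is given for them. Each of the 4 lost its call when single libraries were left out. These were each WTFru library at the first, WTFru replicate 2 or BgnFru replicate 4 at the second, WTFru replicates 1 or 3 or BgnFru replicates 2, 3 or 4 at the third, and WTFru replicates 1, 3 or 4 or any BgnFru library at the fourth. Over the alternatives the highest limma adjusted p was 0.119 at the third and 0.144 at the fourth.

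Fructose was compared with water within each genotype. In wild type limma called 0 of the 1232 unnamed loci and 0.00709% of all loci tested, which was 1 named locus, and 60 unnamed loci (4.87%) had an unadjusted p under 0.05, beside 2.33% of all loci. In the knockout it called 0 of the 1232 and 0% of all loci tested, and 205 unnamed loci (16.6%) had an unadjusted p under 0.05, beside 12.9% of all loci. The interaction of genotype and drink called 0 unnamed loci and 0.00709% of all loci, with 92 unnamed loci (7.47%) under an unadjusted p of 0.05, beside 3.32% of all loci. The 9 loci listed at 0 in a group were among those not called, with adjusted p of at least 0.31 for fructose in either genotype.

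The loci of smallest unadjusted p are given as values. In wild type, the locus between Zap70 and Cnga3 on chromosome 1 stood at 3.49, 4.93, 4.37 and 4.39 FPKM on water and 6.14, 5.1, 6.27 and 5.75 on fructose, without overlap (limma adjusted p = 1.0). Locus 89 of 218 on chromosome 7 stood at 44.3, 59.6, 32.4 and 50.6 on water and 90.9, 84.6, 81.6 and 83.3 on fructose (limma adjusted p = 1.0). The locus between Cyb561 and Limd2 on chromosome 11 stood at 2.0, 0.932, 1.66 and 1.14 on water and 2.83, 2.38, 3.14 and 2.25 on fructose (limma adjusted p = 1.0). Water and fructose libraries of wild type did not overlap at any of the 3, but loci picked by smallest p tend to separate in this way. The same holds for the loci picked in the next comparisons, so the lack of overlap is not read as a difference. In the knockout, locus 2 of 158 on chromosome 15 stood at 35.4, 37.6, 27.9 and 34.4 FPKM on water and 21.9, 24.3, 24 and 22.2 on fructose. Again the groups did not overlap, while wild-type libraries lay at 31.4 to 37.9 on water and 33.5 to 34.6 on fructose (log2 fold in the knockout -0.52 ± 0.08 SE, limma adjusted p = 0.187). That locus was called without BgnCtrl replicate 3 (-0.61, limma adjusted p = 0.00552). Locus 4 of 128 on X stood at 15.5, 15.2, 15.8 and 16 on water and 19.8, 17.3, 19.6 and 20.4 on fructose in the knockout (limma adjusted p = 0.309). Locus 129 of 218 on chromosome 2 stood at 4.72, 6.28, 4.54 and 4.33 on water and 3.08, 2.44, 2.29 and 1.95 on fructose in the knockout (limma adjusted p = 0.309). For the interaction, the locus between Pde1b and Ccdc152 in file order stood at 11.2, 11.6, 11.0 and 10.3 FPKM in WTCtrl, 14.7, 14, 12.4 and 13.4 in WTFru, 10.5, 13.2, 13.8 and 11.9 in BgnCtrl, and 9.97, 9.19, 11.0 and 8.71 in BgnFru. Fructose libraries there lay above water libraries in wild type and not in the knockout, and the interaction was not called (log2 -0.6 ± 0.12 SE, limma adjusted p = 1.0). Locus 85 of 218 on chromosome 7 stood at 23.6, 37.5, 25.2 and 31.7 FPKM in WTCtrl, 53.6, 31.8, 52.8 and 46.7 in WTFru, 33.1, 42.8, 36.6 and 36 in BgnCtrl, and 19.3, 35.4, 27.6 and 20.2 in BgnFru (interaction log2 -1.18 ± 0.28 SE, limma adjusted p = 1.0).

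The libraries numbered 1 bore on the wild-type groups at some of these loci. At 5 of the 9 loci picked by size of fold as lower in the knockout, WTCtrl replicate 1 lay above the other 3 WTCtrl libraries and WTFru replicate 1 lay below the other 3 WTFru libraries. Locus 172 of 197 on chromosome 3 is an example, at 39.0 FPKM in WTCtrl replicate 1 beside 18.6 to 19.1, and at 15.7 in WTFru replicate 1 beside 28.2 to 40.2. At all 5, each of these 2 libraries lay nearer the mean of replicates 2 to 4 of the other drink than that of its own. WTCtrl replicate 1 above and WTFru replicate 1 below the other 3 of their groups was found at 80 of the 1232 loci (6.49%) and at 2.8% of all loci tested, and the opposite at 71 (5.76%) and 2.59%. Whether the drinks of these 2 libraries were exchanged in the labels was not tested, and the comparison of fructose with water in wild type rests on the labels as given. With both of these libraries left out, an alternative chosen after seeing the data, fructose against water in wild type called 1 unnamed locus, locus 75 of 158 on chromosome 15. There WTCtrl replicate 1 read 9.11 FPKM beside 4.32 to 4.91, and WTFru replicate 1 read 4.92 beside 9.28 to 10.2. Leaving them out had to narrow the spread at this locus, so no fold or p is given. With both left out, the genotype counts of unnamed loci were 22 on water and 52 on fructose, given without the counts over all loci.

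Replicate number 1 was next compared with numbers 2 to 4 at every locus. Among the 953 loci of long runs the 4 libraries numbered 1 lay entirely above the other 12 at 1 locus and entirely below at 0 (0.105% in all). Among the 279 flanked loci they lay above at 13 and below at 15 (10% in all). Over all loci tested the shares were 13% above and 7.38% below, and over named loci 14.1% and 7.97%. The median log2 difference was 0.00 for long runs, -0.01 for flanked loci and 0.01 for named loci, with quartiles of -0.07 and 0.08, -0.18 and 0.16, and -0.16 and 0.18.

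**Figure D5:**
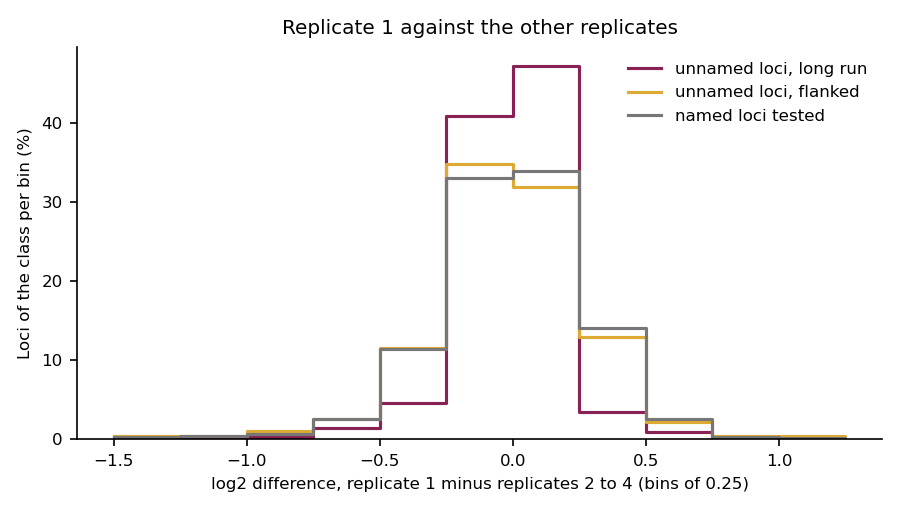
Share of loci (%, vertical axis) by log2 difference of replicate 1 from the mean of replicates 2 to 4, averaged over the 4 groups (horizontal axis, bins of 0.25), for unnamed loci of long runs, flanked unnamed loci and named loci. The curve of the long runs is the narrowest, with quartiles of -0.07 and 0.08, and the flanked loci run close to the named loci.

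Spread between libraries of one group was larger at unnamed than at named loci of the same level. Between 5 and 20 FPKM the median within-group SD of log2(FPKM + 1) over replicates 2 to 4 was 0.154 in long runs, 0.155 in flanked loci and 0.099 in named loci. At 100 FPKM or more it was 0.265, 0.175 and 0.108. Over all 4 libraries of a group the gap between 5 and 20 FPKM was smaller, at 0.153, 0.18 and 0.145 in the same order. At 100 FPKM or more the values over all 4 were 0.281, 0.227 and 0.158.

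Flanked loci did not track their named neighbours closely. After removing group means, the correlation of log2(FPKM + 1) between a flanked locus and its nearest named loci had a median of 0.02 over 492 pairs, with quartiles of -0.28 and 0.36. Neighbouring named loci of one strand had a median of 0.10 over 10889 pairs. Successive unnamed loci of a long run had a median of 0.03 over 923 pairs. A correlation over 0.8 was seen in 2.64%, 5.46% and 0.542% of these pairs. From replicates 2 to 4 alone these shares were closer together, at 2.65%, 3.3% and 1.08%, with medians of 0.06, 0.1 and 0.02. All pairs share the same 16 libraries and their depths, and the values are a description. Of the 17 flanked loci called between genotypes on fructose, 14 had a neighbour that could be tested, and 1 had a neighbour called in the same direction, the pair with D8Ertd82e.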

How the data were processed

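RNA of mouse hippocampus was measured in 16 libraries, 4 in each group of a design of genotype by drink. Per the labels' protocols, total RNA was selected for poly-A, fragmented, copied with random primers and sequenced on an Illumina HiSeq. Per the submitters' processing notes, TopHat, Bowtie, Cufflinks, Cuffdiff and mm10 were used; versions, strand setting and annotation are not given in the sources used here. The values are FPKM as deposited by the authors, 1 column per library; 4 columns of group FPKM were not used. FPKM carries no depth, so the depth of a library is unknown and no counting interval is given.

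Loci were kept apart. Contrasts between groups were fitted in R 4.3.3 by limma 3.58.1 (lmFit, then contrasts.fit and eBayes with trend) to log2(FPKM + 1) of the 14105 loci with a mean of at least 1 FPKM, with 4 group means and no block. The Benjamini-Hochberg adjustment ran over all loci tested, with a threshold of 0.05. Positions of named loci came from GENCODE vM21, matched by name (93% had a unique position). The script was tested on simulated data. The members, lists and rules were chosen with earlier results of these data known.

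Loci named in the text are, per comparison, up to 8 of largest and up to 8 of smallest log2 fold among those called that lie on their side of the reference mean in 4 of 4 libraries, or, with fewer than 3 calls, the 3 of smallest unadjusted p as values. Also named are the 10 most abundant, the 3 on either side of the limit, and loci listed at 0 in a whole group. IDs are given for 2 that rose and 2 that fell. 1 locus that the rule selects is not reported here.

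Same-numbered libraries had deviations from their group means that correlated at over 0.1 in every pair of both fructose comparisons and of BgnFru vs WTFru (0.196 to 0.704 in the last), and at 0.00624 to 0.698 in BgnCtrl vs WTCtrl. From replicates 2 to 4 alone the correlations were -0.259 to 0.225, so a pairing beyond replicate 1 is not shown. Alternatives were another pseudocount, other filters and scalings, a replicate block, a term for replicate 1, replicates 2 to 4 alone, folds relative to the nearest named loci, and each library left out in turn. No sequence is printed, since none could be placed.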

Additional observations from a re-analysis of the deposited data

Results flagged for a closer look

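Libraries were compared within groups of 4 at the named loci and for 3 shares of FPKM. Of 160 groups with any spread, 14 held a library whose gap to the nearest of the others, over the range of the group, was above Dixon's 95% critical value. Chance gives about 1 in 20 for independent groups of normal values. These groups share libraries, many of the loci were picked by fold, and the ratio is 1 wherever only 1 library is above 0. The count is thus not set against chance. At 5 loci lower in the knockout the library was WTCtrl replicate 1. It read 39.0 FPKM at locus 172 of 197 on chromosome 3 (others 18.6 to 19.1), 9.11 at locus 75 of 158 on chromosome 15 (4.32 to 4.91), 16.9 at locus 9 of 100 on chromosome 17 (11.3 to 11.9), 4.16 at locus 14 of 197 on chromosome 3 (2.05 to 2.22) and 2.62 at the locus after Mfhas1 (1.67 to 1.8). The cause was not tested.

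At 6 places 1 library of a group stood above 0 while the other 3 were listed at 0. These were WTCtrl replicate 2 at locus 115 of 154 on chromosome 12 (28.2 FPKM) and at locus 17 of 19 on chromosome 16 (0.351), WTFru replicate 1 at the latter (0.401), BgnCtrl replicate 2 and BgnFru replicate 3 at locus 14 of 197 on chromosome 3 (0.0656 and 0.0816), and BgnFru replicate 2 at locus 173 of 197 there (0.341). The others were low levels or a share. BgnCtrl replicate 4 read 1.78 FPKM at the second of 2 loci between Tek and Fggy (others 0.989 to 0.992). WTFru replicate 2 read 1.16 FPKM at locus 61 of 163 on chromosome 5 (0.806 to 0.843). The share of FPKM in unnamed loci was 46.6% in WTFru replicate 2, below 59.2% to 59.8% in the other 3.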

How the results depend on the processing

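The genotype count on water was 25 and stayed within 1.5 times of that under the alternatives run, except at a filter of 5 FPKM, which leaves 589 unnamed loci and gave 13. On fructose, where 64 were called, the same filter gave 27, the replicate block 146 and a term for replicate 1 128. All are counts of unnamed loci. Counts over all loci under the alternatives are not given, so a change is not read as particular to unnamed loci. Leaving out 1 library gave 19 to 25 calls on water and 37 to 75 on fructose. For fructose in wild type, 0 became 1 on replicates 2 to 4 alone and 1 with both wild-type libraries numbered 1 left out, and the interaction went from 0 to 1 in the same places. Each of these calls was at locus 75 of 158 on chromosome 15. Its knockout libraries read 0 to 0.151 FPKM, so the interaction there repeats the wild-type fold and is not a separate result. Single libraries left out gave 0 for fructose in wild type and for the interaction, and 0 to 1 in the knockout. The block changed no other count by over 1.5 times. The unnamed loci other than the 10 most abundant held a median of 4.42% of the same total FPKM, beside 59.2% with those 10. The cause of the other changes was not tested. Of 762 values of named loci under alternatives, 728 kept their direction and side of the threshold, 33 lost their call, 1 gained one and 0 turned direction. All 33 lost calls were at the 4 loci described as called on fructose and not on water. No alternative here gives depth, so differences at levels near 1 FPKM are the least certain, and a listed 0 cannot be told apart from a failed estimate.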
